A study of Homo sapiens with 28 samples.

Results

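The 10 genes described here encode CXCL8 (interleukin 8) and other secreted inflammatory chemokines and cytokines: CXCL1, CXCL2, CXCL3, CCL2, IL1A, IL1B, IL6, IL11 and LIF. They were taken by symbol from a table of 60286 genes measured in 28 libraries of the human fibrosarcoma line HT-1080, labelled wild type. Cells were incubated overnight in 7 groups of 4 cultures that the design text calls independent, so p-values measure the spread between those cultures. The groups were 5 µM CLA18:3, 10 nM RSL3 with 80 µM CLA18:2, 80 µM CLA18:2, 10 nM RSL3 with 80 µM LA, 80 µM LA, 10 nM RSL3 and the vehicle DMSO. RSL3 inhibits GPX4, the enzyme that reduces lipid hydroperoxides and holds back ferroptosis. LA is linoleic acid, and CLA18:2 and CLA18:3 are conjugated fatty acids, in which the unsaturated carbon pairs adjoin instead of being parted by a methylene group. The sample labels write mM for the fatty acids and the design text µM, which is used here. All cultures were of the same line, and no group carried a genetic change.

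CXCL8, CXCL1, CXCL2 and CXCL3 are chemokines that draw neutrophils, and CCL2 draws monocytes. IL1A and IL1B are interleukin 1 ligands that switch on NF-kappaB in the cells that receive them, whereas IL6, IL11 and LIF signal through the shared receptor subunit gp130. Many of these genes are transcribed through AP-1, C/EBP and NF-kappaB sites near the start, and their mRNAs carry AUUUA repeats that shorten their life.

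Of the 10 genes, 8 passed the filter on low counts and were tested with the other genes of the 16325 that passed. CXCL2 had no count in any library, and CXCL1 had 2 counts in LA replicate 4 and none elsewhere. The filter keeps a gene that is high in any group, so the 8 are not all members and their count is not evidence by itself. Library totals were 16226270 to 24286824 counts. Of the mesenchymal markers 10 of 10 were tested, against 1 of 9 epithelial, 1 of 11 blood cell and 1 of 6 endothelial markers. Summed mesenchymal markers were 10370 to 13020 CPM over the libraries, and summed blood cell markers 8.40 to 20.7 CPM. CSF1R was the blood cell marker that passed the filter, and FCGR3A and TYROBP had no count. The summed blood cell markers were 9.68 to 12.1 CPM in CLA18:3, 10.5 to 16.3 CPM in RSL3+CLA18:2, 14.2 to 15.7 CPM in CLA18:2, 16.6 to 20.7 CPM in RSL3+LA, 14.7 to 17.1 CPM in LA and 9.64 to 12.3 CPM in RSL3, against 8.40 to 9.87 CPM in DMSO. Their part in the results was not tested. CPM is the count divided by the TMM-scaled library total, and it is not corrected for gene length.

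The 4 CXC chemokine genes lie in a single cluster on chromosome 4, from the start of CXCL8 to the end of CXCL2 at chr4:73740506-74099293 in GENCODE release 29 on GRCh38, the build of the files. The 250 bases before the RefSeq start sites (GRCh38.p14) were available for 8 of the 10 genes, and LIF and CCL2 were not in that table. Those of CXCL8, CXCL3, CXCL1, CXCL2 and IL11 are shown 5′ to 3′ on the gene's strand, because CXCL8 and CXCL3 rose most, CXCL1 and CXCL2 had almost no counts, and IL11 fell. They lie at chr4:73740319-73740568 (plus strand), chr4:74038690-74038939 (minus strand), chr4:73869143-73869392 (plus strand), chr4:74099196-74099445 (minus strand) and chr19:55370464-55370713 (minus strand). Capitals mark, on either strand, the AP-1 letters TGANTCA, the relaxed kappaB letters GGNNNNNCC and the TATA letters TATAAA.
CXCL8: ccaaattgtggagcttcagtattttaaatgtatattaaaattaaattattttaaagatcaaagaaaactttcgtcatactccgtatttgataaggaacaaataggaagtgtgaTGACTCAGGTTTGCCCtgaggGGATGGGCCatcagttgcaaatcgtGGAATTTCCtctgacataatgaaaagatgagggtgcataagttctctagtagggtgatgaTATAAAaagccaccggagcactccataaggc
CXCL3: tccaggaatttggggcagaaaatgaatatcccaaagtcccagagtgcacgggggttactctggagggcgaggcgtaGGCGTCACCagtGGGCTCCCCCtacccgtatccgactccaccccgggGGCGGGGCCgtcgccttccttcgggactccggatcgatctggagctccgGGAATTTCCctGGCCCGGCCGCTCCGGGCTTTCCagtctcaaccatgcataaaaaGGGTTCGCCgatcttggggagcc
CXCL1: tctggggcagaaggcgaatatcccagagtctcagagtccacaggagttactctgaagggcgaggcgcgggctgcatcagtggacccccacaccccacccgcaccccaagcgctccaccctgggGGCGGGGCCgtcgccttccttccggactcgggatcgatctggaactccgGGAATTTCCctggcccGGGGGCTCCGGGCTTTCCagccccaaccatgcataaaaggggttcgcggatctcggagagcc
CXCL2: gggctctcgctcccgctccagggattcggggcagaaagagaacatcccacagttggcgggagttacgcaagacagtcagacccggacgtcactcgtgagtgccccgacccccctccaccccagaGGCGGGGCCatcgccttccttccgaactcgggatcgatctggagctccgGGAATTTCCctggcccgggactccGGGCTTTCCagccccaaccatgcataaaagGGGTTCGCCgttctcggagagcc
IL11: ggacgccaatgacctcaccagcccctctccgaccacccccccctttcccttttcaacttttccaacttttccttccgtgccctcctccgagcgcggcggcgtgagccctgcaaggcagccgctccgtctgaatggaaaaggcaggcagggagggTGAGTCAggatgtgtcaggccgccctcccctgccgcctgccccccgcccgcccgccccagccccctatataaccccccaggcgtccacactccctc

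In the CXCL8 window, AP-1 letters began 137 bases before the start, kappaB letters 130, 116 and 91 bases before it, and TATA letters 31 bases before it. The first kappaB match directly follows the AP-1 match. The kappaB letters GGAATTTCC stood 91 bases before the start in CXCL8 and 78, 78 and 77 bases before it in CXCL3, CXCL1 and CXCL2. CXCL3 held 9 kappaB matches, some of which overlap, CXCL1 held 4 and CXCL2 held 4, and none of these 3 windows held AP-1 letters. IL11 held AP-1 letters 96 bases before its start and no kappaB match, and IL1A, with 2 listed start sites, held them 12 bases before the first and 105 and 55 bases before the second. Among 27305 promoters of the same length, 6.6% held the AP-1 letters, 73.0% the relaxed kappaB letters and 11.1% the TATA letters, so a kappaB match alone sets few genes apart. Over a global alignment of the windows, CXCL1 and CXCL3 were 81.4% identical, CXCL2 and CXCL3 73.4%, and CXCL8 and CXCL3 48.1%. The remaining searches also covered both strands: C/EBP letters (TTGCNNAA, 9.13% of promoters) stood in CXCL2, IL6 and IL1B, and NRF2 element letters (TGACNNNGC, 11% of promoters) in IL1A. CRE letters (TGACGTCA, 1.77%) and CHOP and ATF4 letters (TGATGNAA, 3.19%) matched in none of the 8 genes. Matches describe letters and do not show that a factor bound, and a miss does not show that no site is there. The CXCL8 window holds ttgcaaat shortly before GGAATTTCC, which departs from the C/EBP letters at the last base alone.

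Of the 9 protein-coding genes of the chemokine cluster, CXCL8 and CXCL3 were the 2 that could be tested, with 7103 and 3544 counts summed over the 28 libraries. The other 7 had at most 4 counts in any library, and CXCL2 and PF4V1 had none. At 0 counts, a library of 16226270 counts leaves room for up to 3 counts by counting error, so a low level of CXCL2 cannot be told from none. CXCL1 and CXCL3 are close copies, but every window of 150 bases in the longest transcript of each member was found in no other gene. The search asked for exact matches over that length. It does not show how reads with mismatches, or shorter reads, were assigned.

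**Figure D1:**
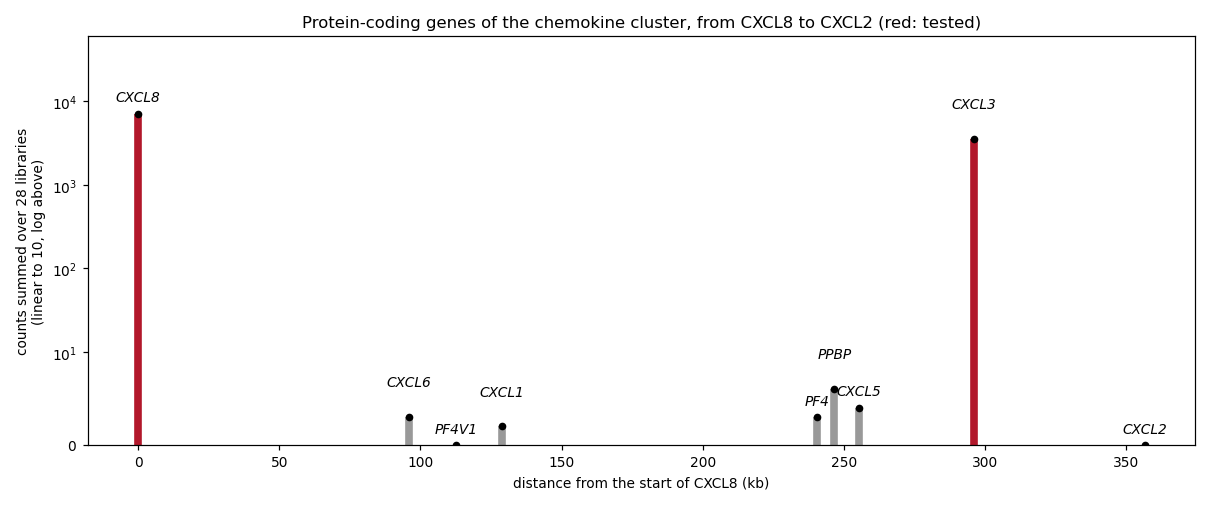
Counts summed over all 28 libraries (vertical axis, linear to 10 and logarithmic above) for the 9 protein-coding genes of the chemokine cluster, placed by distance from the start of CXCL8 in kb. Red bars mark the tested genes, CXCL8 with 7103 and CXCL3 with 3544 counts, and the grey genes had 6 or fewer.

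CXCL8 was higher than in DMSO in all 6 treatments, and by far the most in the 3 that held a conjugated fatty acid. It had 19.3, 23.0, 28.6 and 18.1 CPM in CLA18:3, 23.3, 21.8, 29.3 and 24.2 CPM in RSL3+CLA18:2, and 27.96, 29.1, 30.9 and 34.0 CPM in CLA18:2. In the other groups it had 3.56, 3.95, 3.38 and 3.54 CPM in RSL3+LA, 3.43, 2.81, 3.75 and 3.34 CPM in LA, and 2.85, 4.64, 3.09 and 4.06 CPM in RSL3, against 1.63, 1.53, 2.10 and 1.78 CPM in DMSO. Each treated group lay above all 4 DMSO libraries, and the 12 libraries with a conjugated fatty acid lay above the 16 without. By mean the order was CLA18:2 (30.5 ± 2.64 CPM, SD, n = 4), RSL3+CLA18:2 (24.6 ± 3.26), CLA18:3 (22.3 ± 4.71), RSL3 (3.66 ± 0.837), RSL3+LA (3.61 ± 0.241), LA (3.33 ± 0.392) and DMSO (1.76 ± 0.252). The ranges of neighbours in that order overlapped except between CLA18:3 and RSL3 and between LA and DMSO.

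Against DMSO, with edgeR's quasi-likelihood test and Benjamini-Hochberg adjustment over all tested genes, CXCL8 rose by 3.65 ± 0.16 on the log2 scale with CLA18:3 (SE; adjusted p = 6.17e-19). It rose by 3.80 ± 0.16 with RSL3+CLA18:2 (adjusted p = 9.77e-20) and by 4.10 ± 0.16 with CLA18:2 (adjusted p = 8.36e-21), or 17.2-fold for the last. The increases were smaller with RSL3+LA (1.03 ± 0.18, adjusted p = 0.000121), LA (0.91 ± 0.18, adjusted p = 0.000811) and RSL3 (1.06 ± 0.18, adjusted p = 0.00159), at about 2.04-fold, 1.88-fold and 2.08-fold. These 6 comparisons share the DMSO libraries. CLA18:3 was given at 5 µM and CLA18:2 at 80 µM, so their values stand side by side and were not compared.

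The mitochondrial share of counts was uneven between libraries, at 0.290 to 2.18%, and 8 libraries were under 1%: 1 with CLA18:3, 3 with RSL3+CLA18:2, 2 with CLA18:2, 1 with LA and 1 with RSL3. Without them CXCL8 was higher than in DMSO by 3.69 with CLA18:3, 4.03 with RSL3+CLA18:2, 4.16 with CLA18:2, 1.02 with RSL3+LA, 0.90 with LA and 1.0 with RSL3 (log2), and it was called in each. In that fit RSL3+CLA18:2 is a lone library, assumed to vary like the others. This setting was chosen after the data were seen.

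**Figure D2:**
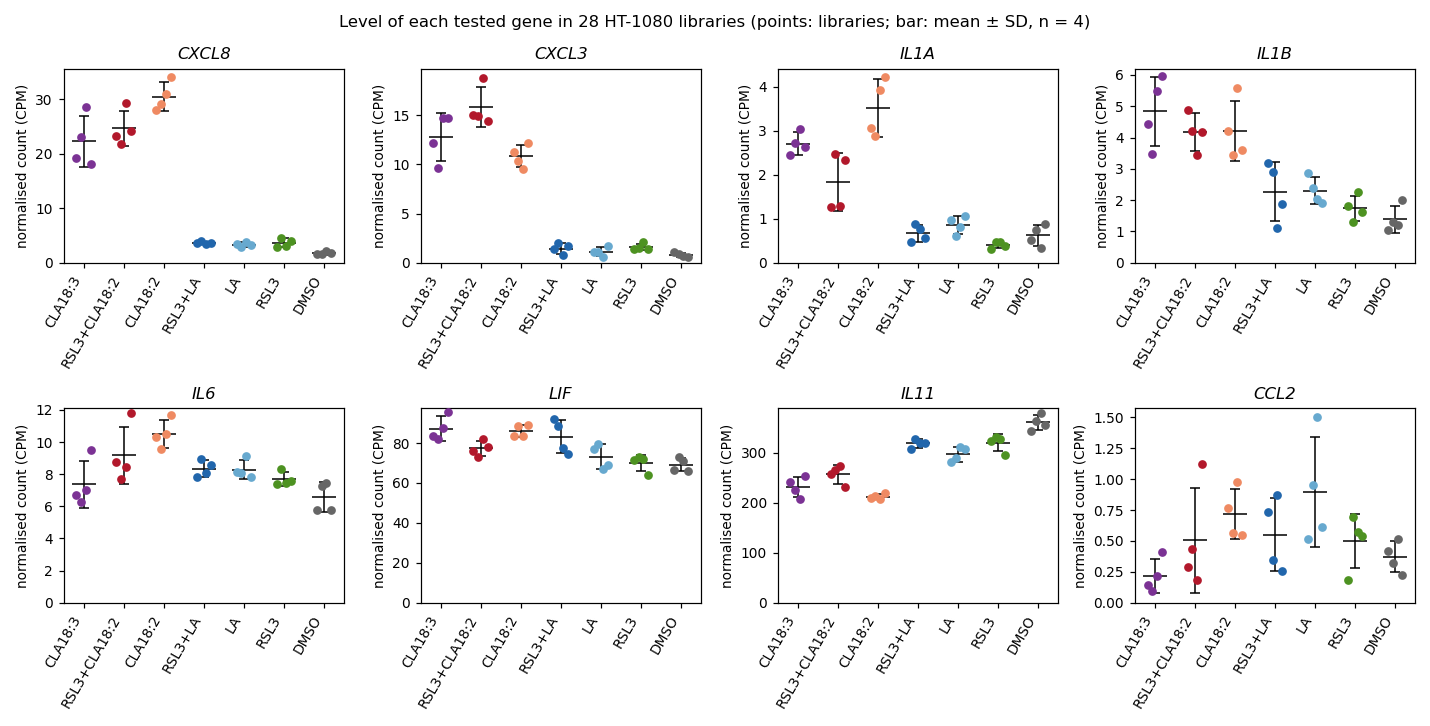
Normalised count in CPM (vertical axis, linear from 0) of the 8 tested genes by group, with a point per library and a bar at the mean with its SD (n = 4). CXCL8 and CXCL3 sit far above the other groups in CLA18:3, RSL3+CLA18:2 and CLA18:2, and IL11 is highest in DMSO.

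CXCL3, a neutrophil chemokine like CXCL8, rose in the same 3 groups. It had 12.2, 9.64, 14.7 and 14.7 CPM in CLA18:3, 15.0, 14.9, 18.8 and 14.4 CPM in RSL3+CLA18:2 and 11.3, 10.3, 9.55 and 12.2 CPM in CLA18:2, against 1.05, 0.878, 0.644 and 0.613 CPM in DMSO. These 12 libraries lay above every library of the remaining groups, where RSL3+LA reached 1.97, LA 1.71 and RSL3 2.09 CPM. Against DMSO, CXCL3 rose by 4.0 ± 0.24 with CLA18:3 (adjusted p = 1.57e-15), 4.30 ± 0.24 with RSL3+CLA18:2 (adjusted p = 1.36e-16) and 3.76 ± 0.24 with CLA18:2 (adjusted p = 4.47e-15; log2, SE). With RSL3+LA it was called by a small margin (0.86 ± 0.28, adjusted p = 0.046). That call was lost without RSL3+LA replicate 1 (0.89, adjusted p = 0.0724), 2 (0.66, 0.22) or 4 (0.78, 0.122), and without DMSO replicate 2 (0.91, 0.0761), 3 (0.76, 0.151) or 4 (0.76, 0.133). With RSL3 (1.0, 95% interval 0.43 to 1.57) and LA (0.51, -0.07 to 1.10) CXCL3 did not pass, at adjusted p = 0.209 and 0.372.

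The counts behind those lower groups were few. CXCL3 had 65 counts summed over the 4 DMSO libraries and 121 over the 4 RSL3 libraries, against 145 and 281 for CXCL8. CCL2, the monocyte chemokine, had 0.0968 to 0.409 CPM in CLA18:3, 0.183 to 1.12 in RSL3+CLA18:2 and 0.547 to 0.980 in CLA18:2, against 0.223 to 0.515 in DMSO. It passed in none of the 12 comparisons, its smallest adjusted p against DMSO was 0.205 with LA (log2 fold change 1.24, 95% interval 0.12 to 2.35).

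IL1A and IL1B, the 2 interleukin 1 ligands, rose with each treatment that held a conjugated fatty acid. IL1A had 2.44, 2.71, 3.04 and 2.64 CPM in CLA18:3, 1.27, 2.48, 1.28 and 2.34 CPM in RSL3+CLA18:2 and 3.05, 2.88, 3.92 and 4.22 CPM in CLA18:2, against 0.525, 0.740, 0.344 and 0.892 CPM in DMSO. Those groups did not overlap with DMSO, and the RSL3+CLA18:2 libraries formed a low and a high pair. IL1A rose by 2.12 ± 0.31 with CLA18:3 (adjusted p = 1.52e-06), 1.57 ± 0.32 with RSL3+CLA18:2 (adjusted p = 0.000157) and 2.49 ± 0.31 with CLA18:2 (adjusted p = 3.99e-08; log2, SE). With the libraries of at least 1% mitochondrial counts, the RSL3+CLA18:2 difference was 1.03 and was not called (adjusted p = 0.124), whereas CLA18:3 gave 2.14 and CLA18:2 gave 2.51.

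IL1B had 3.49 to 5.95 CPM in CLA18:3, 3.43 to 4.89 in RSL3+CLA18:2 and 3.45 to 5.57 in CLA18:2, against 1.05 to 2.01 in DMSO, with no overlap. It rose by 1.81 ± 0.27, 1.59 ± 0.27 and 1.60 ± 0.27 in those 3 groups (log2, SE; adjusted p = 1.55e-06, 1.19e-05 and 8.07e-06). In RSL3+LA it spread from 1.13 to 3.19 CPM, and in LA it had 1.91 to 2.87 CPM. Neither difference from DMSO passed (0.72 and 0.73, adjusted p = 0.101 and 0.108). The RSL3+LA difference was called without RSL3+LA replicate 3 (0.94, adjusted p = 0.019) or DMSO replicate 4 (0.93, 0.0445), and the LA difference without DMSO replicate 4 (0.94, 0.0475).

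IL6, the interleukin 6 gene, rose less. It had 10.3, 9.54, 10.5 and 11.7 CPM in CLA18:2, against 5.78, 7.26, 7.47 and 5.74 CPM in DMSO, and the libraries did not overlap. It rose by 0.67 ± 0.13 with CLA18:2 (adjusted p = 0.000115) and 0.48 ± 0.14 with RSL3+CLA18:2 (adjusted p = 0.00514). The second call was lost without RSL3+CLA18:2 replicate 4, the library at 11.8 CPM (0.34, adjusted p = 0.0545), and in the subset of at least 1% mitochondrial counts (0.35, adjusted p = 0.219). With CLA18:3 IL6 stood 0.16 above DMSO (95% interval -0.12 to 0.44, adjusted p = 0.389). IL6 shares 428 exon bases with AC073072.1 and 46 with STEAP1B, and LIF shares 175 with AC004264.1 and 92 with LIF-AS1, all on the opposite strand, and the strand setting of the counting is not given in the sources used here, so reads there cannot be told apart.

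LIF and IL11, which signal through gp130, moved in opposite directions. LIF had 83.7, 81.9, 87.6 and 95.7 CPM in CLA18:3, 83.4, 88.5, 83.4 and 89.1 CPM in CLA18:2 and 92.0, 88.4, 77.8 and 74.6 CPM in RSL3+LA, against 66.5, 72.9, 71.2 and 66.1 CPM in DMSO. All 3 groups lay above DMSO, and LIF rose by 0.33 ± 0.07, 0.32 ± 0.07 and 0.27 ± 0.07 (log2, SE; adjusted p = 0.000108, 0.000167 and 0.00526). With RSL3+CLA18:2 it stood 0.16 higher and did not pass (adjusted p = 0.0545), but it did without RSL3+CLA18:2 replicate 2 (0.19, adjusted p = 0.0404) or DMSO replicate 2 (0.18, 0.0495).

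IL11 was the member with the highest level per length, at 135 CPM per kb of exon in DMSO, against 17.4 for LIF, 3.17 for IL6 and 0.774 for CXCL8. It had 242, 225, 208 and 253 CPM in CLA18:3, 258, 267, 274 and 231 CPM in RSL3+CLA18:2 and 210, 214, 207 and 219 CPM in CLA18:2, against 345, 364, 381 and 357 CPM in DMSO. Every one of these libraries lay below DMSO, and so did those of RSL3+LA (308 to 329), LA (281 to 312) and RSL3 (296 to 333). IL11 fell with CLA18:3 (-0.64 ± 0.05, adjusted p = 1.08e-11), RSL3+CLA18:2 (-0.49 ± 0.05, adjusted p = 3.22e-09), CLA18:2 (-0.77 ± 0.05, adjusted p = 5.9e-14), LA (-0.28 ± 0.05, adjusted p = 0.000359) and RSL3+LA (-0.18 ± 0.05, adjusted p = 0.0239). The last call was lost without RSL3+LA replicate 1 (-0.16, adjusted p = 0.0817), DMSO replicate 2 (-0.18, 0.0514) or DMSO replicate 3 (-0.16, 0.106), and RSL3 alone did not pass in edgeR (-0.17, adjusted p = 0.323) but did in limma voom (-0.17, adjusted p = 0.0168). In bulk RNA, fewer cells expressing a gene and less RNA per cell cannot be told apart.

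Against DMSO, 5 of the 8 tested members were higher and 1 was lower with CLA18:3, where 35.9% of all tested genes were called, 19.1% higher and 16.7% lower. With RSL3+CLA18:2, 5 were higher and 1 lower, beside 18.6% and 16.6% of all genes (35.2% in all). With CLA18:2, 6 were higher and 1 lower, beside 20.1% and 18.6% (38.8% in all). The members' higher calls stand above the background in these 3 comparisons. The members were chosen with earlier results of these data known, so this excess is a description and not independent evidence. With RSL3+LA 3 were higher and 1 lower, beside 5.43% and 4.81% (10.2% in all), and with LA 1 and 1, beside 4.91% and 3.41% (8.32% in all). With RSL3 CXCL8 was the 1 gene called, where 0.178% of genes were higher and 0.0245% lower (0.202% in all). The median log2 fold change over the 8 was 1.07 with CLA18:3, 1.02 with RSL3+CLA18:2 and 1.26 with CLA18:2, beside 0.00, -0.02 and -0.02 over all tested genes. With RSL3+LA, LA and RSL3 the members' medians were 0.45, 0.49 and 0.28, beside 0.01, 0.00 and 0.01 over all.

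**Figure D3:**
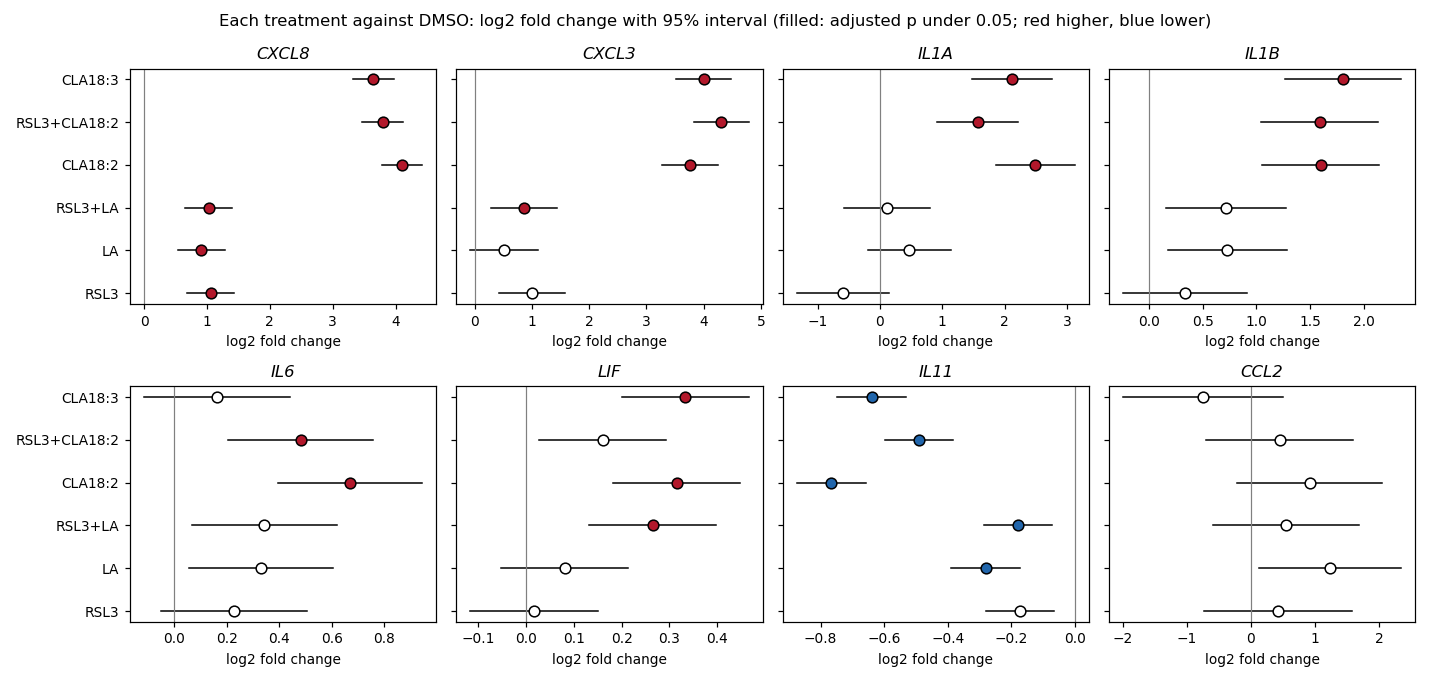
Log2 fold change against DMSO (horizontal axis) with its 95% interval for the 8 tested genes in the 6 treatments; filled points passed an adjusted p of 0.05, red higher and blue lower. CXCL8 was called in all 6 treatments, IL11 was called lower in 5, and CCL2 in none.

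CLA18:2 and LA are isomers that differ in whether their unsaturated carbon pairs adjoin, and both were given at 80 µM, alone and with 10 nM RSL3. In these 2 matched comparisons CXCL8, CXCL3, IL1A and IL1B were higher with the conjugated isomer each time over all libraries. The IL1B calls, and the IL1A call with RSL3 present, depended on which libraries were fitted. Between CLA18:2 and LA, IL1A was called in every fit, at 1.89 to 2.16 (log2). CXCL8 differed by 3.20 ± 0.15 between CLA18:2 and LA (adjusted p = 1.13e-18) and by 2.77 ± 0.14 between RSL3+CLA18:2 and RSL3+LA (adjusted p = 9.19e-17; log2, SE), with no overlap in either pair. CXCL3 differed by 3.24 ± 0.22 and 3.44 ± 0.22 (adjusted p = 8.24e-14 and 1.34e-14). IL1A differed by 2.02 ± 0.30 and 1.45 ± 0.31 (adjusted p = 1.62e-06 and 0.00061), and IL1B by 0.87 ± 0.25 and 0.87 ± 0.26 (adjusted p = 0.00802 and 0.0102). The second IL1B call was lost without RSL3+LA replicate 3, the library at 1.13 CPM (0.65, adjusted p = 0.0583). With only libraries of at least 1% mitochondrial counts, IL1B did not pass between CLA18:2 and LA (0.55, adjusted p = 0.306) or between RSL3+CLA18:2 and RSL3+LA (0.59, adjusted p = 0.337). In that subset IL1A did not pass between RSL3+CLA18:2 and RSL3+LA (0.92, adjusted p = 0.202).

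IL11 was lower with the conjugated isomer, at -0.49 ± 0.05 between CLA18:2 and LA and -0.31 ± 0.05 between RSL3+CLA18:2 and RSL3+LA (adjusted p = 5.4e-09 and 2.72e-05). LIF was higher with CLA18:2 than with LA (0.23 ± 0.06, adjusted p = 0.00513). In the presence of RSL3 its difference was -0.10 (95% interval -0.24 to 0.03, adjusted p = 0.253). IL6 was called at the margin between CLA18:2 and LA (0.34 ± 0.13, adjusted p = 0.0491), and was lost without any of CLA18:2 replicate 1 (0.35), 3 (0.34) or 4 (0.30), or LA replicate 1 (0.34), 2 (0.34) or 4 (0.31). IL6 was also not called by DESeq2 (0.35, adjusted p = 0.0506) or without a filter on low counts (0.35, edgeR adjusted p = 0.131). Nor was IL6 called in the subset of at least 1% mitochondrial counts (0.33). With RSL3 its difference was 0.14 (-0.13 to 0.41). CCL2 gave -0.32 (-1.38 to 0.74) and -0.10 (-1.22 to 1.02), intervals that leave room for either direction. In all, 6 members were higher and 1 lower between CLA18:2 and LA, where 15.6% of genes were higher and 14.6% lower (30.2% in all). Between the RSL3 combinations 4 were higher and 1 lower, beside 14.1% and 12% of genes (26.1% in all). The members' median differences were 0.60 and 0.50, beside -0.02 and -0.02 over all tested genes.

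Adding CLA18:2 to RSL3 raised the same 4 genes over RSL3 alone: CXCL8 by 2.74 ± 0.15, CXCL3 by 3.30 ± 0.22, IL1A by 2.16 ± 0.33 and IL1B by 1.26 ± 0.26, with adjusted p of 7.29e-17, 2.26e-14, 3.91e-06 and 0.000308 by edgeR. With only libraries of at least 1% mitochondrial counts the IL1B difference was 0.94 and did not pass (adjusted p = 0.116). IL11 was lower (-0.32 ± 0.05, adjusted p = 1.45e-05), which makes 4 higher and 1 lower, where 15.9% of genes were higher and 14.5% lower (30.4% in all). Adding LA to RSL3 changed LIF alone among the 8 (0.25 ± 0.07, adjusted p = 0.0109), in a comparison that called 3.78% of genes higher and 5.8% lower (9.58% in all). That call was lost without RSL3+LA replicate 1 (0.20, adjusted p = 0.0842) or RSL3 replicate 4 (0.21, 0.0587), and in the subset of at least 1% mitochondrial counts (0.21, 0.0667). CXCL8 differed there by -0.03 (95% interval -0.37 to 0.31, adjusted p = 0.955).

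Adding RSL3 to CLA18:2 called 3 members, 2 higher and 1 lower, where 6.68% of genes were higher and 5.26% lower (11.9% in all). IL11 was higher by 0.28 ± 0.05 (adjusted p = 0.000496). CXCL3 was higher by 0.54 ± 0.18 (adjusted p = 0.0442), a call that was lost when any of the 8 libraries was left out, with differences of 0.44 to 0.60. IL1A was lower (-0.93 ± 0.28, adjusted p = 0.0264), and that call was lost without RSL3+CLA18:2 replicate 1 (-0.80) or 3 (-0.79), or CLA18:2 replicate 3 (-0.87) or 4 (-0.84). In the subset of at least 1% mitochondrial counts CXCL3 (0.72, adjusted p = 0.16) and IL1A (-1.48, adjusted p = 0.1) did not pass, and without a filter on low counts IL1A did not (-0.95, adjusted p = 0.125). CXCL8 stood at -0.31 (95% interval -0.55 to -0.06) and did not pass (adjusted p = 0.106), but it did without RSL3+CLA18:2 replicate 3 (-0.41, adjusted p = 0.0384). Adding RSL3 to LA called 0 of the 8 with edgeR, and 0 with DESeq2 or limma voom, where 0.0368% of genes were higher and 0.0123% lower (0.049% in all). LIF was the 1 member with an unadjusted p under 0.05 (0.18 ± 0.06, adjusted p = 0.466), and CXCL8 differed by 0.12 (-0.22 to 0.46).

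Whether the RSL3 response itself differed was tested by interaction terms. RSL3 raised CXCL8 by 1.06 without a fatty acid, and with CLA18:2 present its effect was -0.31, a difference of -1.36 ± 0.22 (edgeR adjusted p = 0.000246, where 1.75% of genes had a positive and 1.8% a negative term, 3.55% in all). For IL11 the effect of RSL3 was 0.28 with CLA18:2 and -0.17 without, a difference of 0.45 ± 0.08 (adjusted p = 0.000372). With the libraries of at least 1% mitochondrial counts the CXCL8 interaction was -1.13 and did not pass (adjusted p = 0.0526). With LA present the CXCL8 term was -0.94 (95% interval -1.44 to -0.43) and did not pass (adjusted p = 0.369), in a test that called 0.0245% of genes. Without a filter on low counts it did (-0.92, adjusted p = 0.0256). With LA 0 of the 8 members passed in edgeR, 2 of them (CXCL8 and IL11) had an unadjusted p under 0.05, and IL11 passed without the filter (0.29, adjusted p = 0.0324), in DESeq2 and in limma voom (0.28 each, adjusted p = 0.032 and 0.0452). Between CLA18:2 and LA the RSL3 response differed for LIF (-0.34 ± 0.09, adjusted p = 0.0293), in a test that called 2.41% of genes positive and 1.22% negative (3.63% in all), with values of -0.15 in CLA18:2 and 0.18 in LA. This call was lost without RSL3+CLA18:2 replicate 2 (-0.32), CLA18:2 replicate 2 (-0.32) or 4 (-0.33), RSL3+LA replicate 1 (-0.29) or 2 (-0.32), or LA replicate 3 (-0.31) or 4 (-0.31), and in the subset of at least 1% mitochondrial counts (-0.28, adjusted p = 0.27).

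**Figure D4:**
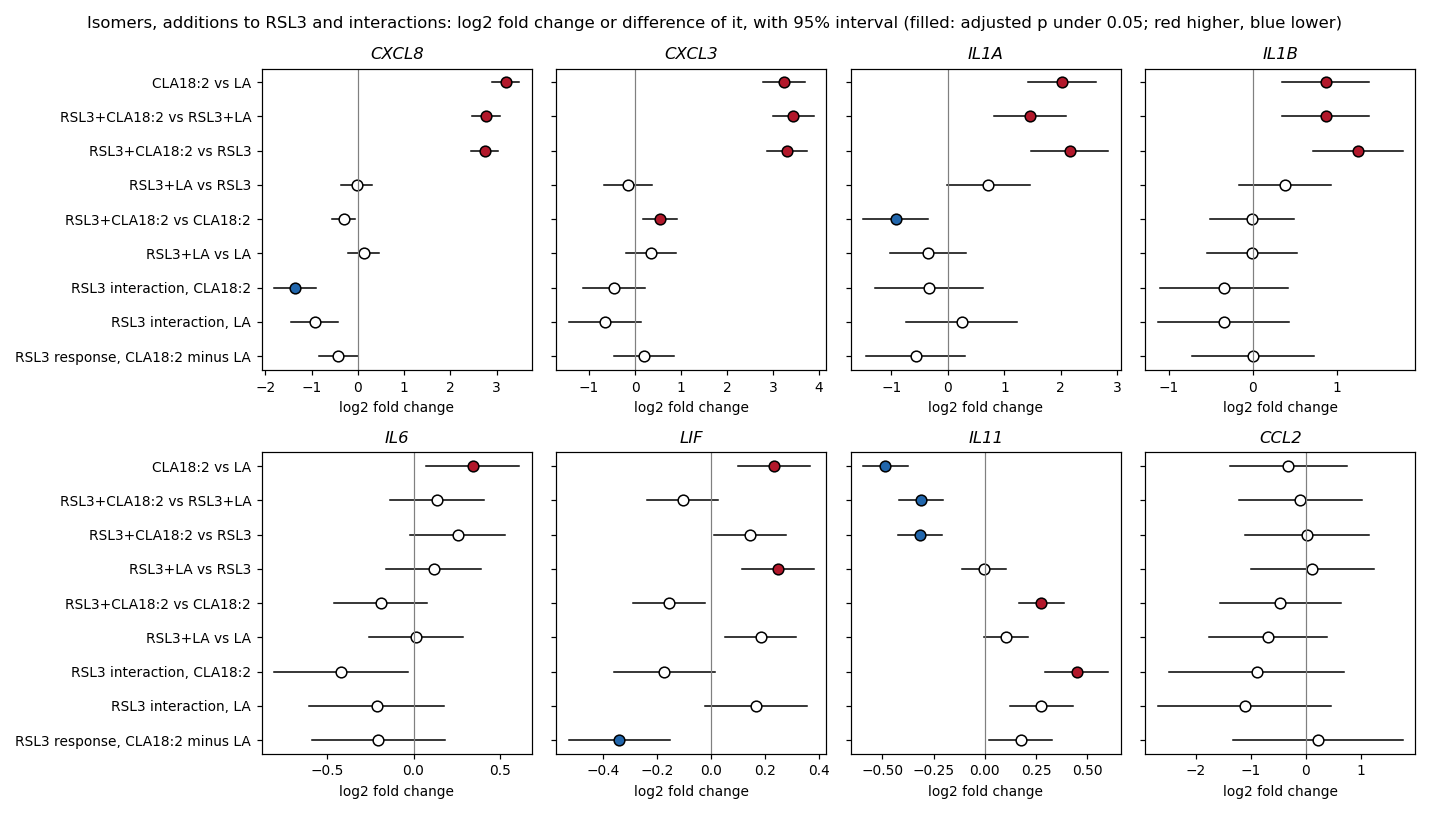
Log2 fold change or difference of it (horizontal axis), with its 95% interval, for the 8 tested genes in the comparisons of isomers, of additions to RSL3 or to a fatty acid, and in the 3 interaction terms; filled points passed an adjusted p of 0.05. CXCL8, CXCL3, IL1A and IL1B were higher in the 3 comparisons of CLA18:2 against LA or over RSL3, and IL11 was lower.

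Other genes of the pathway were counted by 8 lists holding 118 genes. Chemokine and cytokine genes outside the members mostly had too few counts: 3 of 14 chemokine genes and 9 of 20 cytokine genes could be tested, and TNF had no count. CCL26, an eosinophil chemokine, had 1.03 ± 0.174 CPM in RSL3+CLA18:2 and 1.01 ± 0.266 in CLA18:2, against 0.127 ± 0.0936 in DMSO (SD, n = 4). It rose by 2.98 ± 0.71 and 2.96 ± 0.71 (edgeR adjusted p = 0.00113 and 0.000985), and was not called with CLA18:3 (0.90 ± 0.79). CCL26 had 0 to 23 counts per library, and its mean was 0.304 CPM or less in the other groups. It passed the filter on low counts through the 2 groups where it was high, so its calls there are not evidence by themselves. CCL20, which draws CCR6-bearing lymphocytes, rose by 0.78 ± 0.17 with CLA18:3, 0.54 ± 0.18 with RSL3+CLA18:2 and 0.65 ± 0.18 with CLA18:2. Among the cytokine genes 6 rose with CLA18:3, 3 with RSL3+CLA18:2 and 4 with CLA18:2, of 9 tested, and 1 fell, IL32 with RSL3+CLA18:2. Over all tested genes 19.1%, 18.6% and 20.1% were higher and 16.7%, 16.6% and 18.6% lower in these 3 comparisons, which is the background for each list. Those that rose in all 3 included TNFSF9, the 4-1BB ligand (0.79 ± 0.06, 0.87 ± 0.06 and 0.80 ± 0.06) and CSF1, the macrophage growth factor (0.56 ± 0.07, 0.53 ± 0.07 and 0.74 ± 0.07). CSF1 was the cytokine gene that also rose with LA (0.54 ± 0.07) and RSL3+LA (0.55 ± 0.07).

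Of 14 receptor and decoy genes 9 could be tested. CXCR1, a receptor for CXCL8, had no count, and CXCR2, the other, had at most 3 in a library. With CLA18:3, RSL3+CLA18:2 and CLA18:2, 5 of 9 rose each time and 3, 2 and 1 fell, beside 19.1%, 18.6% and 20.1% of all tested genes higher and 16.7%, 16.6% and 18.6% lower. IL6ST, which encodes gp130, rose by 0.19 ± 0.07, 0.57 ± 0.07 and 0.82 ± 0.07, and TNFRSF1A, the main TNF receptor, by 0.28 ± 0.04, 0.36 ± 0.04 and 0.49 ± 0.04. Of 12 gp130, JAK and STAT3 response genes, 2 rose and 1 fell with CLA18:3, 4 and 3 with RSL3+CLA18:2, and 3 and 5 with CLA18:2, beside the same background. PIM3, a kinase of that group, rose by 0.68 ± 0.06, 0.80 ± 0.06 and 0.71 ± 0.06, whereas its relative PIM1 fell with CLA18:2 (-0.74 ± 0.10) and stood at -0.17 and -0.24 in the other 2, which did not pass.

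Of 14 AP-1, C/EBP and ATF factor genes, 10 rose and 1 fell with CLA18:3, 12 and 1 with RSL3+CLA18:2, and 9 and 1 with CLA18:2. Over all tested genes 19.1%, 18.6% and 20.1% were higher there and 16.7%, 16.6% and 18.6% lower. With RSL3+LA 3 rose and 1 fell, beside 5.43% and 4.81% of all genes. With LA 1 rose and 1 fell, beside 4.91% and 3.41%. With RSL3 3 rose and 0 fell, beside 0.178% and 0.0245%. The list medians were 0.51, 0.48 and 0.36 in the conjugated groups. CEBPB, a C/EBP factor that acts on inflammatory genes, had 120 ± 13.7 CPM in CLA18:3, 125 ± 12.8 in RSL3+CLA18:2 and 130 ± 6.62 in CLA18:2, against 46.4 ± 3.84 in DMSO. It rose by 1.37 ± 0.09, 1.42 ± 0.09 and 1.49 ± 0.09, and also by 0.55 ± 0.09 with RSL3+LA and 0.65 ± 0.09 with LA. For DDIT3, which encodes the stress-induced factor CHOP, the increases were 1.92 ± 0.15, 0.93 ± 0.16 and 2.03 ± 0.15.

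NF-kappaB genes were called in both directions. Of 20, 8 rose and 3 fell with CLA18:3, 5 and 4 with RSL3+CLA18:2, and 8 and 4 with CLA18:2, and the list medians were 0.10, 0.08 and 0.05. Over all tested genes 19.1%, 18.6% and 20.1% were higher and 16.7%, 16.6% and 18.6% lower in these 3 comparisons. The list's counts with RSL3+CLA18:2 are near that background. With CLA18:3 and CLA18:2 its higher counts are above it, and its lower counts are near it. TNIP1, an inhibitor of the pathway, rose by 0.49 ± 0.05, 0.48 ± 0.05 and 0.72 ± 0.05, and NFKB2, a subunit, by 0.55 ± 0.06, 0.30 ± 0.06 and 0.68 ± 0.06. The feedback inhibitor TNFAIP3 was among those that fell with RSL3+CLA18:2 and CLA18:2, while NFKBIA, another, rose in all 3. Of the genes for interleukin 1 processing and release, 5 of 10 rose and 1 fell with CLA18:3, 4 and 2 with RSL3+CLA18:2, and 4 and 3 with CLA18:2, beside 19.1%, 18.6% and 20.1% of all tested genes higher and 16.7%, 16.6% and 18.6% lower. CASP4, an inflammatory caspase, rose by 1.27 ± 0.07, 1.36 ± 0.07 and 1.46 ± 0.07, and NLRP1, an inflammasome sensor, by 0.64 ± 0.11, 0.98 ± 0.11 and 1.20 ± 0.11.

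AUUUA, the core of the AU-rich element, was dense in the mRNAs of the CXC chemokines and less so in LIF and CCL2. CXCL8 held 5.87 per kb of its longest coding transcript and CXCL3 held 6.51, each above 99.9% of 12350 tested coding genes, whose median was 1.07. CXCL2 held 8.21 and CXCL1 held 4.56 (above 99.1%), IL11 held 3.95 (97.9%), IL6 held 3.93 (97.8%) and IL1B held 3.68 (96.8%). IL1A held 2.35 (82.8%), and LIF with 1.76 (70.0%) and CCL2 with 1.35 (58.7%) lay nearer to the median. IL11, which fell, was denser than IL1A, which rose, and CXCL8 and CXCL3, which rose most, were denser than both. The density was counted over the whole transcript, and its part in these changes was not tested. Of 12 genes for AU-rich mRNA decay and stability, 3 rose and 3 fell with CLA18:3, 2 and 4 with RSL3+CLA18:2, and 3 and 5 with CLA18:2. The higher counts are near the 19.1%, 18.6% and 20.1% of all tested genes. The lower counts stand beside 16.7%, 16.6% and 18.6%, and those with RSL3+CLA18:2 and CLA18:2 are above that background. ZFP36L2, which speeds such decay, fell by 0.59 ± 0.08, 0.62 ± 0.08 and 0.75 ± 0.09, and KHSRP, another decay factor, fell by 0.21 ± 0.05, 0.29 ± 0.05 and 0.39 ± 0.05. ELAVL1 and MAPKAPK2 also fell with CLA18:2, HNRNPD with RSL3+CLA18:2 and CLA18:2, ZC3H12A with RSL3+CLA18:2 and RC3H2 with CLA18:3. Other genes of the list went the other way. ZFP36 rose in all 3 groups and ZFP36L1 with CLA18:3 and CLA18:2. TIAL1 rose with CLA18:3, and RC3H1 with RSL3+CLA18:2 and CLA18:2.

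**Figure D5:**
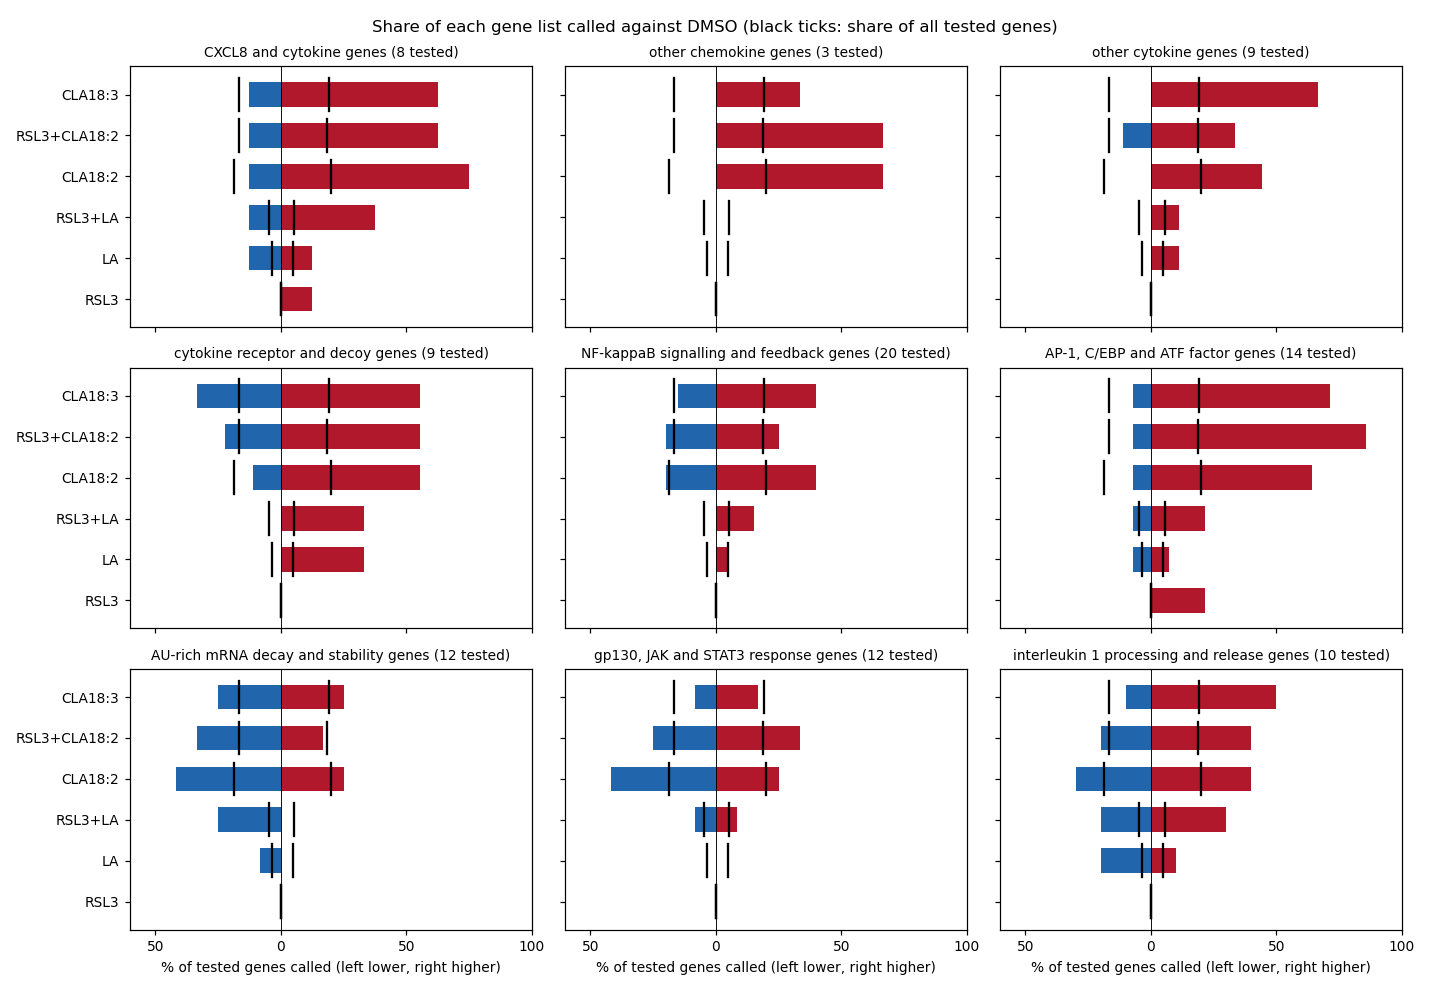
Percent of the tested genes of each list called lower (blue, left) or higher (red, right) against DMSO in the 6 treatments; black ticks give the same share over all 16325 tested genes. The AP-1, C/EBP and ATF factor genes reach 12 of 14 higher with RSL3+CLA18:2, where 18.6% of all genes were higher.

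Across the 28 libraries, which share treatments and so are not independent points, the genes whose log2 level was most like that of CXCL8 among 13233 ranked were IFI44 (Pearson r 0.99), SLC7A11 (0.99), GCNT2 (0.99), PSMD11 (0.98) and DAP3 (0.98). By Spearman's rho they were TRAM1 (0.95), IFI44, GCNT2 and AKR1C1 (0.94 each) and C6orf62 (0.93). IFI44 had 10.3 CPM in CLA18:3, 11.4 in RSL3+CLA18:2 and 12.97 in CLA18:2, against 1.80 in DMSO, and SLC7A11, the cystine importer, had 130, 161 and 197 CPM, against 18.7 CPM in DMSO. Among the members, CXCL3 had a Pearson r of 0.96 with CXCL8, IL1A 0.88, IL1B 0.85, LIF 0.62, IL6 0.51, CCL2 -0.11 and IL11 -0.92. These values are descriptions without a test.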

How the data were processed

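Total RNA was sequenced on an Illumina NovaSeq, paired-end, per the labels. The authors deposited raw counts per gene; HISAT, SAMtools, featureCounts and DESeq2 with build hg38 are named in the submitters' processing notes, with no versions, annotation or strand setting given in the sources used here. Libraries held 16226270 to 24286824 counts, and 16325 of 60286 genes passed the edgeR filter by group. Counts were scaled by TMM and fitted with 1 mean per group over all 28 libraries (edgeR 4.0.16, R 4.3.3), tested by the quasi-likelihood F test and adjusted by Benjamini-Hochberg over all tested genes, called at 0.05. The SE is the size of the log2 fold change over the square root of F. Intervals are 95%. DESeq2 1.42.0 and limma 3.58.1 were alternatives, as were other filters and scalings, subsets of libraries and a replicate block. The fit was tested on simulated data. The members, comparisons and gene lists were chosen with earlier results of these data known. All 10 members are named, as are the 2 genes of each list with the smallest p in CLA18:2 against DMSO and the 5 genes most like CXCL8. FCGR3A, TYROBP, CSF1R, TNFAIP3, NFKBIA, CXCR1, CXCR2, TNF, IL32, PF4V1, ZFP36, ZFP36L1, TIAL1 and RC3H1 were named after their values were seen. So were ELAVL1, HNRNPD, MAPKAPK2, ZC3H12A and RC3H2. Positions are from GENCODE release 29, promoters from RefSeq on GRCh38.p14. Intervals of fold changes come from the fit and include the spread between cultures, whereas the floor of 3 counts covers counting error only.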

Additional observations from a re-analysis of the deposited data

Results flagged for a closer look

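Of 57 sets of 4 libraries with a spread, 3 held a library far from the rest of its group by Dixon's criterion. Chance gives about 1 in 20, so 3 of 57 is near that rate. CXCL1 was at 0.0814 CPM (2 counts) in LA replicate 4 and at 0 in the other LA libraries, where any count at all would be flagged. CXCL3 was at 18.8 CPM in RSL3+CLA18:2 replicate 3, where the others had 14.4 to 15.0 CPM, and at 2.09 CPM in RSL3 replicate 3, where the others had 1.39 to 1.48 CPM.

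The response to RSL3 differed with a fatty acid in 3 tests of the difference itself. For CXCL8 the difference was -1.36 (log2) between RSL3 in the presence and in the absence of CLA18:2, and for IL11 it was 0.449. For LIF the response differed by -0.339 between CLA18:2 and LA.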

How the results depend on the processing

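Over 120 results and 1959 values under the alternatives, 1885 kept their side of the threshold, 57 lost the threshold and 17 gained it. Where either fit called the gene, 0 reversed direction. Values called in neither fit could change sign, as for CCL2 with RSL3+CLA18:2 against DMSO (-1.02 to 0.74). In all, 97 results kept their side of the threshold under every alternative run. CXCL8 was called against DMSO in all 6 treatments under all of them. The count of members called moved by over 1.5 times, or to or from 0, in some settings. On leaving out 1 library it did so in 3 of 8 fits for RSL3+LA against DMSO and 2 of 8 for RSL3+LA against RSL3. For RSL3+CLA18:2 against CLA18:2 the count moved in 3 of 8 fits. For the difference of the RSL3 response between CLA18:2 and LA the count moved in 7 of 16. With limma voom it was 2 for RSL3 against DMSO (1 in the main analysis) and 4 for LA against DMSO (2 in the main analysis). The interaction of RSL3 with LA, with 0 called, gave 2 without a filter on low counts, 1 with DESeq2 and 1 with limma voom. With only libraries of at least 1% mitochondrial counts, chosen after the data were seen and leaving 1 RSL3+CLA18:2 library, RSL3+LA against RSL3 gave 0, RSL3+CLA18:2 against CLA18:2 gave 1, RSL3+CLA18:2 against RSL3+LA gave 3, the interaction with CLA18:2 gave 1 and the difference between CLA18:2 and LA gave 0; the cause was not tested, although fewer libraries were fitted.

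Leaving out 1 library at a time, members called were 1 to 1 for RSL3, 2 to 3 for LA, 7 to 7 for CLA18:2, 2 to 5 for RSL3+LA, 5 to 7 for RSL3+CLA18:2 and 6 to 6 for CLA18:3, each against DMSO. They were 0 to 1 for RSL3+LA against RSL3, 5 to 5 for RSL3+CLA18:2 against RSL3, 0 to 0 for RSL3+LA against LA, 1 to 2 for RSL3+CLA18:2 against CLA18:2, 6 to 7 for CLA18:2 against LA and 4 to 5 for RSL3+CLA18:2 against RSL3+LA. The interactions gave 0 to 0 with LA, 2 to 2 with CLA18:2 and 0 to 1 for their difference.

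Replicate numbers are shared by the groups. Of 84 correlations between same-numbered libraries 7 were over 0.1, with a median of 0.00547. In 0 of 21 pairs of groups were all of them over 0.1. LA with RSL3 came nearest, at 0.0245, 0.185, 0.105 and 0.155 for replicates 1 to 4. Weak correlations do not show that the cultures were unpaired. With the replicate block 119 of 120 results kept their call, and CXCL3 in RSL3+LA against DMSO lost it (0.85, adjusted p = 0.0573). Counts limit CCL2, CXCL1 and CXCL2, and IL1A and CXCL3 outside the conjugated groups.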

Other observations

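The ratio of CXCL8 to CXCL3 counts was 1.55, 1.46, 1.56 and 1.68 in the 4 RSL3+CLA18:2 libraries, against 2.48, 2.82, 3.24 and 2.78 in the 4 CLA18:2 libraries. The ranges did not overlap, and the difference was noticed in the values and was not tested. With CLA18:3 the ratio was 1.59, 2.39, 1.94 and 1.23. In DMSO it was 1.55, 1.74, 3.27 and 2.91, from 11 to 20 counts of CXCL3 per library.

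The spread between replicates was uneven: the biological coefficient of variation was 19.9% in CLA18:3, 15.1% in RSL3+CLA18:2, 8.9% in CLA18:2, 9.0% in RSL3+LA, 7.27% in LA and 7.79% in RSL3, against 4.52% in DMSO. The limma voom alternative gave each group its own weight, and there 113 results kept their side of the threshold, 6 gained it and 1 lost it. The part of the uneven spread in the results above was not tested further.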
